A study of Mus musculus with 30 samples.

Results

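Bulk RNA-seq of mouse embryonic stem cells (mESCs) was examined for 9 X-linked genes of the ubiquitin pathway, *Uba1*, *Ube2a*, *Huwe1*, *Cul4b*, *Mid1*, *Usp9x*, *Usp11*, *Usp27x* and *Ubqln2*, out of 55240 genes matched to the annotation. They were found by their Ensembl identifiers in the deposited count table, and their copy number in each line followed the listed borders of the deletions. All 30 libraries come from female 129/Sv x Cast/Ei mESCs grown in serum and LIF on feeder fibroblasts, which carry 1 129 and 1 Cast X chromosome unless stated. There were 2 libraries each of XX Wildtype, XX Rnf12+/-, XCastO129 (Cast X kept, 129 X lost) and X129OCast (129 X kept, Cast X lost), and 22 libraries of 13 deletion lines. All deletion lines are also Rnf12+/-, that is, heterozygous for a deletion of *Rlim* (*Rnf12*), and lack a segment of the 129 X chromosome. Per the paper the *Rlim* deletion lies on the 129 X, so that X129OCast has no intact *Rlim* and XCastO129 keeps the intact copy. Of the lines, 9 were represented by 2 clones and 4 (Deletion A, Deletion B, Deletion AB and Deletion C-G) by 1, and I-TEL and J were made from another Rnf12+/- parental line than the rest.

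Ubiquitin is a small protein that marks other proteins for degradation or for a change of activity. An activating enzyme charges it, a conjugating enzyme carries it, and a ligase places it on the substrate. Deubiquitinases remove it again, and shuttle proteins bring marked proteins to the proteasome. In female mESCs both X chromosomes are active, so that a heterozygous deletion takes away 1 of 2 active copies. The question for each gene is whether its level fell in proportion to the copies or whether the remaining copy was read more.

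*Uba1* encodes the main ubiquitin activating enzyme (X: 20658326 to 20683179, plus strand, all positions in GRCm38/mm10). *Ube2a* encodes a conjugating enzyme that acts with RAD18 in DNA damage tolerance (X: 36873900 to 36884222, plus). *Huwe1* encodes a large HECT-type ligase (X: 151800807 to 151935417, plus), *Cul4b* a cullin that forms the scaffold of a multi-subunit ligase (X: 38533274 to 38576196, minus), and *Mid1* a TRIM-type ligase that binds microtubules (X: 169685199 to 170005736, plus). *Usp9x* (X: 13071498 to 13173328, plus), *Usp11* (X: 20703906 to 20720539, plus) and *Usp27x* (X: 7371276 to 7375830, minus) encode deubiquitinases. *Ubqln2* encodes a ubiquilin, a shuttle to the proteasome (X: 153498227 to 153501570, plus). The values below are of exonic reads over each whole gene.

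The library names form 3 batches. XX Wildtype, XX Rnf12+/- and Deletion E formed a batch of 6 libraries with 20375194 to 21181405 counts, the other deletion lines a batch of 20 with 8816184 to 10680026 counts, and the XO lines a batch of 4 with 14998265 to 16494893 counts. Single reads were used for the XO lines, and paired reads for the others. The loss of a copy by deletion could therefore be compared within 1 batch, whereas in XO lines it cannot be told apart from batch and read type. *Rlim* was at 193 to 211 TPM (counts per exon length, scaled to the same total in each library) in XX Wildtype and at 77.6 to 79.7 in XX Rnf12+/-. It was at 71.2 to 77.8 TPM in XCastO129 and at 3.53 in X129OCast. The 6 pluripotency markers summed to 4133 to 6103 TPM and the 8 fibroblast markers to 68.5 to 330 TPM over all libraries, with no marker of either list at 0 throughout. In the XCastO129 libraries 6.95% and 7.45% of allelic reads on the X chromosome were assigned to 129. In bulk RNA, fewer cells with a transcript and less transcript per cell cannot be told apart.

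In XX Rnf12+/- cells, *Uba1* had the highest level at 987 ± 8.56 TPM (SD, n = 2), followed by *Cul4b* at 435 ± 27.1, *Huwe1* at 242 ± 19.3, *Ubqln2* at 230 ± 11.9 and *Usp9x* at 194 ± 15.5. *Ube2a* was at 146 ± 2.41, *Usp11* at 82.4 ± 47.6, *Usp27x* at 7.52 ± 0.446 and *Mid1* at 0.571 ± 0.156 TPM. In this order, *Huwe1* and *Ubqln2* were the only neighbours whose libraries overlapped. *Mid1* stayed below the minimum of 5 TPM, so that 8 of the 9 genes entered the tests.

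In the deletion lines, the total level of the 8 expressed genes was lower with 1 copy, at 50.0% (*Ube2a*) to 67.7% (*Cul4b*) of the mean of the libraries of the same batch that kept both copies. The decrease passed the test for 5 genes, *Uba1*, *Ube2a*, *Huwe1*, *Cul4b* and *Ubqln2*, and not for *Usp9x*, *Usp11* and *Usp27x*. Per copy, *Cul4b* alone was called higher, and on the Cast allele no gene was. Counts of all reads or of Cast reads, scaled by autosomal genes, were tested with the quasi-likelihood model of edgeR, and p-values were adjusted over all expressed genes (Benjamini-Hochberg). Calls have an adjusted p under 0.05. A level that only follows the copies has a log2 difference of -1 in total and 0 per copy.

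**Figure D1:**
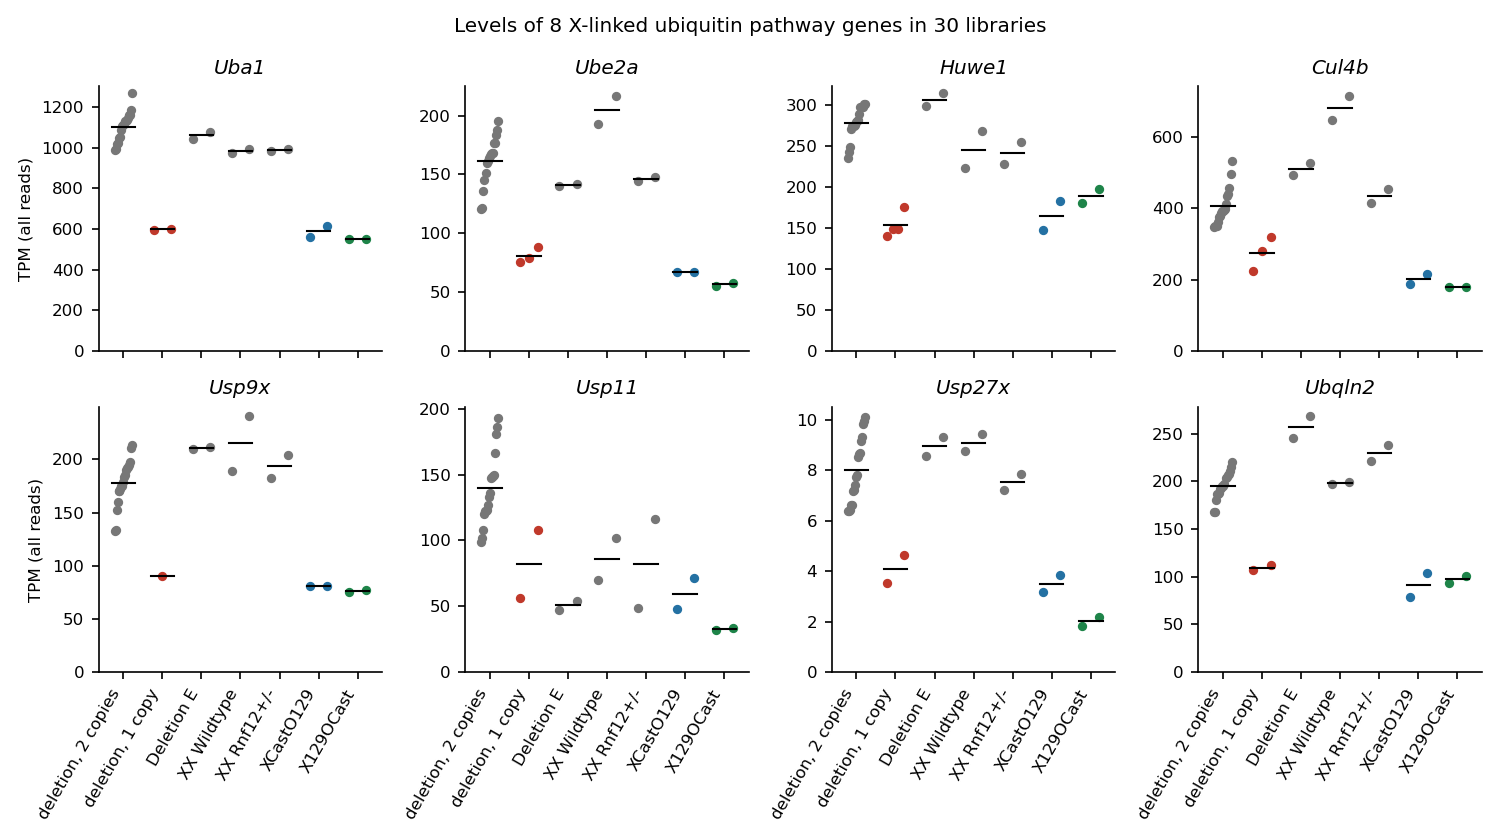
Level (TPM of all reads, linear axis from 0) of the 8 expressed genes in each of the 30 libraries, with 1 point per library and a line at the mean of each group. Red points are libraries whose deletion takes away 1 copy, grey points have both copies, and blue and green points are the XO lines. *Usp11* is the gene whose 1-copy and 2-copy deletion libraries overlap.

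*Uba1* lies in deletions B and AB. It was at 600.1 TPM in Deletion B and 595 in Deletion AB, against a lowest, median and highest value of 989, 1113 and 1267.5 TPM in the 18 libraries with both copies. Both 1-copy libraries lay far below all others. The total log2 difference was -0.89 ± 0.08 (SE, adjusted p = 3.63e-07), in a comparison where 0.145% of all expressed genes and 72.2% of 18 X-linked genes with the same copy loss were called lower. Per copy the log2 difference was 0.11, with a 95% interval from -0.03 to 0.26 (adjusted p = 0.841). Of the 13 other protein-coding genes with this copy loss, 10 had a more negative total difference than *Uba1* and 3 a less negative one.

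*Usp11*, a deubiquitinase with roles in DNA repair, starts beyond the end of *Uba1* and shares these deletions. It was at 108 TPM in Deletion B and at 55.9 in Deletion AB, and at 98.6, 135 and 193 (lowest, median, highest) in the 18 others. Deletion B lay within the range of the libraries with both copies and Deletion AB below it. The total log2 difference of -0.77 ± 0.23 was not called (adjusted p = 0.490), and the per-copy difference of 0.23 had an interval from -0.21 to 0.67. The level also varied among libraries of 1 genotype, from 48.8 to 116 TPM in XX Rnf12+/-.

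*Ube2a* and *Cul4b* lie in deletions C and C-G. *Ube2a* was at 79.1 and 75.2 TPM in the clones of Deletion C and at 88.2 in Deletion C-G, against 121, 166 and 196 (lowest, median, highest) in the 17 libraries with both copies. The groups did not overlap. The total log2 difference was -1.01 ± 0.13 (adjusted p = 4.06e-05), and the per-copy difference was -0.01 with an interval from -0.25 to 0.23.

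*Cul4b* was at 319 and 282 TPM in the clones of Deletion C and at 225 in Deletion C-G, against 347, 393 and 534 in the others. The 3 libraries lay below all 17 with both copies, but closer to them than for *Ube2a*. In total the log2 difference was -0.57 ± 0.12 (adjusted p = 0.00694) and the per-copy difference 0.43 ± 0.11, with an interval from 0.21 to 0.65 (adjusted p = 0.0213). Of the 38 other protein-coding genes with this copy loss, 36 had a more negative total difference than *Cul4b*. In this comparison 2.92% of all expressed genes were called lower in total and 4.34% higher per copy, the largest shares among the deletion comparisons, and 70.2% and 8.51% of 47 X-linked genes with the same copy loss. The lower total was no longer called without Deletion C clone 2 (log2 difference -0.59, adjusted p = 0.0769). The per-copy call rested on both clones of Deletion C, as it was lost without clone 1 (log2 difference 0.31, adjusted p = 0.369) or clone 2 (0.41, adjusted p = 0.238), and it was lost with XX Rnf12+/- as the reference (log2 difference 0.22, adjusted p = 0.125). The pluripotency markers summed to 5094 to 5569 TPM in these 3 libraries and to 4446 to 6103 in the 17 others, and the fibroblast markers to 73.8 to 126 and 68.5 to 255 TPM, so that both overlapped. Their part in the result was not tested.

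As *Cul4b* and *Ube2a* share the deletion and the libraries, their ratio was compared directly. The log2 ratio of *Cul4b* to *Ube2a* TPM was 2.01 and 1.90 in Deletion C and 1.35 in Deletion C-G, against 0.991, 1.33 and 1.84 (lowest, median, highest) in the 17 other libraries. The mean was higher by 0.42 with 1 copy (exact permutation test, two-sided, p = 0.0149, adjusted p = 0.0298 over 2 pairs, smallest possible p 0.000877). Deletion C-G lay within the range of the others, and the call was lost without Deletion C clone 1 (0.30, exact permutation p = 0.129) or clone 2 (0.35, exact permutation p = 0.0760). The ratio of *Uba1* to *Usp11* differed by -0.06 between 2 libraries with 1 copy and 18 with both (exact permutation test, two-sided, p = 0.800, adjusted p = 0.800), with 1 library near each end of the range.

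**Figure D2:**
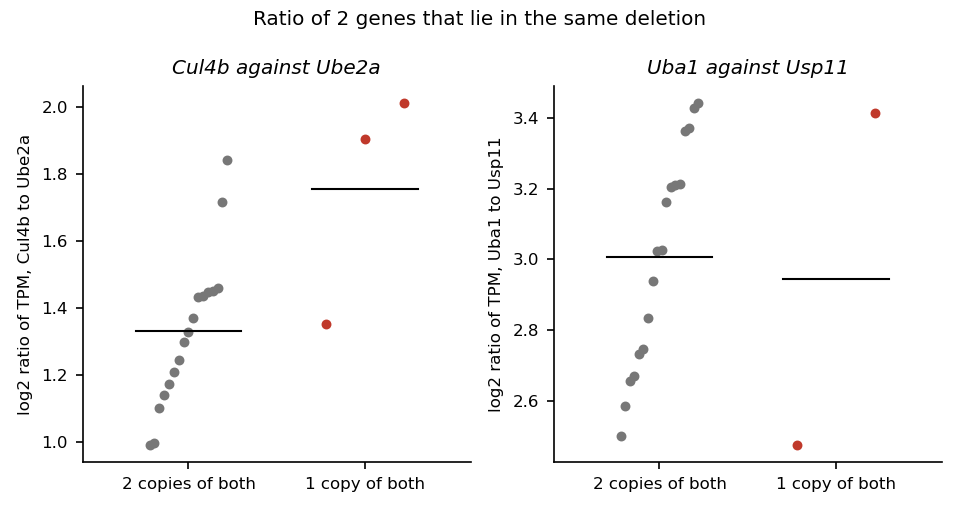
Log2 ratio of TPM between *Cul4b* and *Ube2a* (left) and between *Uba1* and *Usp11* (right) in the 20 deletion libraries of 1 batch, with 1 point per library and a line at the mean. Of the 3 red points on the left, 2 (Deletion C) lie above all grey points and 1 (Deletion C-G) lies at 1.35, among them.

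*Huwe1* lies in deletions K and I-TEL and had the most libraries with 1 copy. It was at 149 and 140 TPM (Deletion K) and at 149 and 176 (Deletion I-TEL), against 236, 280 and 301 in the 16 libraries with both copies. All 4 lay below all 16. In total the log2 difference was -0.89 ± 0.07 (adjusted p = 2.62e-08), where 0.179% of all expressed genes and 66.7% of 30 X-linked genes with the same copy loss were called lower. Per copy, the difference of 0.11 had an interval from -0.02 to 0.24 (adjusted p = 0.767). Deletion I-TEL and Deletion J share their parental line, and the mean in I-TEL was 0.544 times that in J (163 ± 18.8 against 299 ± 2.64 TPM, SD, n = 2 each).

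*Ubqln2* lies in Deletion I-TEL and starts 105 kb beyond the end of Deletion K. It was at 106 and 112 TPM in I-TEL, against 168, 195 and 220.0 in the 18 other libraries. Its total log2 difference was -0.89 ± 0.10 (adjusted p = 9.68e-06), where 0.239% of all expressed genes and 47.1% of 51 X-linked genes with the same copy loss were called lower. Per copy the difference was 0.11, with an interval from -0.07 to 0.29. The K clones, at 203 and 186 TPM, lay among the libraries with both copies.

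*Usp9x*, a deubiquitinase of many signalling proteins, lies in Deletion AB alone. It was at 90.2 TPM in that library and at 133, 179 and 213 in the 19 others, so that the single 1-copy library was the lowest. Its total log2 difference of -0.98 ± 0.19 did not pass (adjusted p = 0.143), in a comparison where 0.0171% of all genes were called lower. DESeq2 called it lower (adjusted p = 3.03e-04). The 1-copy arm is 1 library, so that in both tools the other libraries supply all of the spread. *Usp27x*, whose product works in a histone deubiquitinating module, was at 3.53 TPM in Deletion A and 4.62 in Deletion AB and at 6.36, 7.75 and 10.1 in the 18 others. These rest on 41 and 63 counts against 81 to 134. The log2 difference in total of -0.96 ± 0.21 did not pass (adjusted p = 0.0802, where 0.12% of all genes were called lower), and DESeq2 called it lower (adjusted p = 0.00537). Of X-linked genes with the same copy loss, 9.09% of 22 (AB) and 33.3% of 39 (A and AB) were called lower. Per copy, the differences of 0.02 for *Usp9x* and 0.04 for *Usp27x* had intervals from -0.34 to 0.38 and from -0.37 to 0.46.

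In 7 of these 8 genes every library with 1 copy lay below every library with both, and *Usp11* was the exception. Over all expressed genes this held for 0.171% in K and I-TEL, 0.778% in B and AB, 0.829% in C and C-G, 0.966% in A and AB, 1.16% in I-TEL and 4.71% in AB, which has 1 library. Genes called higher per copy were 0% of all expressed genes in B and AB and in K and I-TEL, 0.0171% in I-TEL and 0.0342% in AB and in A and AB. Of X-linked genes with the same copy loss, they were 0% of 18 in B and AB and 0% of 30 in K and I-TEL. They were 1.96% of 51 in I-TEL, 5.13% of 39 in A and AB and 18.2% of 22 in AB.

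*Mid1* starts 315 kb beyond the listed end of Deletion I-TEL and was counted with 2 copies in all deletion lines. It had 4 to 26 counts per library in the batch of 20 and 12 and 10 in I-TEL. Counted as deleted in I-TEL and tested without a minimum level, its total log2 difference was -0.05, with an interval from -1.11 to 1.00. Of its transcript sequence, 28.7% of 50-base windows also occur in other genes, led by its partial copy *Mid1-ps1*, so that reads may be split between them. The share was 6.18% for *Usp9x* and at most 0.644% for the other 7 genes.

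Allele-specific reads were informative for 5 of the genes. With 1 copy, few 129 reads remained. *Huwe1* had 16 129 reads against 1731 Cast reads over the 4 libraries of K and I-TEL, a 129 share of 0.916% (95% Wilson interval 0.565 to 1.48%, counting error only), against 50.3% in the 16 libraries with both copies. The share was 0.835% for *Uba1* (interval 0.489 to 1.42%), 1.85% for *Usp11* (0.897 to 3.76%) and 0.787% for *Usp9x* (0.268 to 2.29%). No 129 read was found for *Ubqln2* beside 86 Cast reads, which allows a share of up to 4.28%. With both copies the 129 share of these 4 genes was 45.9 to 48.5%. *Cul4b* and *Ube2a* had almost no allelic reads with paired reads, and *Usp27x* and *Mid1* too few for the test.

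**Figure D3:**
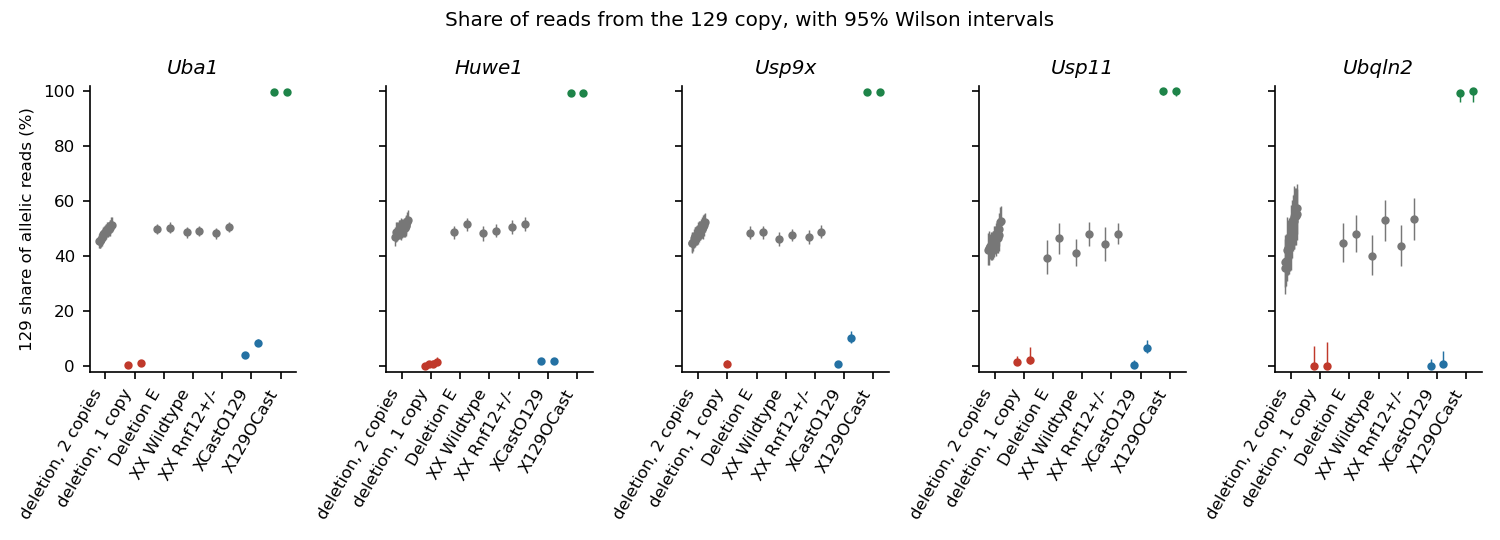
Share of allelic reads assigned to the 129 copy (percent, linear axis) for the 5 genes with informative reads, 1 point per library with its 95% Wilson interval. Libraries with both copies lie around the middle, those whose deletion holds the gene lie near 0, XCastO129 lies close to 0, with *Usp9x* of clone 1 the highest, and X129OCast lies near 100.

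The Cast copy that remained was not called higher for any of the 5 genes. *Huwe1* had 697 to 789 Cast CPM (Cast counts scaled to the autosomal Cast reads of the library) with 1 copy (n = 4), against 572, 693 and 794 (lowest, median, highest) with both copies (n = 16). The ranges overlapped, and the log2 difference was 0.10, with an interval from -0.07 to 0.28 (adjusted p = 0.891). *Uba1* had 1241 and 1316 against 1087, 1185 and 1370, a difference of 0.12 with an interval from -0.07 to 0.30 (adjusted p = 0.859). For *Usp11*, *Usp9x* and *Ubqln2* the differences were -0.03, -0.04 and -0.16, with intervals that reached 0.48, 0.36 and 0.29. At the unadjusted level of 0.05, 0 of 5 passed with edgeR and 0 of 5 with DESeq2. Of all 7087 genes tested on the Cast allele, 0% were called higher in these comparisons except in I-TEL (0.212%). For the 4 genes with 2 or more 1-copy libraries the intervals exclude a log2 difference of 1, which full compensation would give. They do not exclude a smaller rise, with upper limits at ratios from 1.21 (*Huwe1*) to 1.395 (*Usp11*). The fold change above which the paper counts a gene as upregulated lies below these ratios. The paper sets it on levels per copy of cells with 1 X against XX cells, not on Cast reads of deletion lines. *Usp9x* has 1 such library, so that the other libraries supply the spread behind its interval.

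In both XO lines, 7 of the 8 genes were called lower in total than in XX Rnf12+/-, where 23.2% (XCastO129) and 29.7% (X129OCast) of all expressed genes were called lower. The exceptions were *Usp11* in XCastO129 and *Huwe1* in X129OCast. *Usp11* depended on the XX Rnf12+/- libraries, as it was called in XCastO129 without replicate 1 (log2 difference -0.85, adjusted p = 0.0197) and not called in X129OCast without replicate 2 (-0.42, adjusted p = 0.231). Per copy, *Huwe1* and *Uba1* were called higher in both lines, where 20.1% and 25.6% of all genes were, and *Usp27x* was called lower in X129OCast, where 28% were. These comparisons span library batches and read types, and with so many genes called the share of members called, 2 of 8 and 3 of 8, lay below the share of all genes called in either direction (41.1% and 53.6%).

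*Huwe1* was at 147 and 182 TPM in XCastO129 and at 181 and 198 in X129OCast, against 228 and 255 in XX Rnf12+/-. The XO libraries were lower than both XX Rnf12+/- libraries, but stood above the level that 1 copy would give. Per copy, the log2 difference was 0.55 ± 0.11 in XCastO129 (adjusted p = 6.13e-04) and 0.80 ± 0.11 in X129OCast (adjusted p = 1.03e-05). On the Cast allele it was 0.66 ± 0.14 in XCastO129 (adjusted p = 0.0015), from 560.0 and 678 to 792 and 1031 Cast CPM, and 13.4% of genes were called higher there. The share of allelic reads differs between these batches, and its part in the Cast values of single genes was not tested. Without XCastO129 clone 1 the Cast difference was 0.82 and remained called, whereas the lower total was no longer called (adjusted p = 0.0642).

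*Uba1* was at 616 and 563 TPM in XCastO129 and at 552 and 551 in X129OCast, against 981 and 993 in XX Rnf12+/-. Per copy this was a log2 difference of 0.36 ± 0.06 (adjusted p = 1.60e-04) and 0.31 ± 0.06 (adjusted p = 4.18e-04). On the Cast allele the difference of 0.15 in XCastO129 was not called (interval -0.04 to 0.35). XCastO129 clone 1 kept 182 129 reads beside 1948 Cast reads of *Uba1*, and clone 2 kept 78 beside 1813. *Usp9x* had 87 and 7 129 reads there. Without clone 1 *Uba1* remained called per copy (log2 difference 0.29, adjusted p = 0.00437). With only the groups compared in the fit, neither *Uba1* nor *Huwe1* was called per copy in XCastO129, at log2 differences of 0.37 and 0.56 (adjusted p = 0.0603 and 0.0544).

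*Usp27x* was at 3.16 and 3.85 TPM in XCastO129 and at 1.84 and 2.196 in X129OCast, against 7.20 and 7.83 in XX Rnf12+/-. The X129OCast libraries were the lowest of the series. Per copy the log2 difference was 0.00 in XCastO129 (interval -0.33 to 0.34) and -0.75 ± 0.17 in X129OCast (adjusted p = 0.00129). *Usp27x* was the gene called between the XO lines, which share a batch, with a log2 difference of 0.76 ± 0.18 for XCastO129 minus X129OCast (adjusted p = 0.0152), where 4.57% of all genes were called higher. The counts were 65 and 79 against 40 and 43. The XO lines differ both in the X kept and in *Rlim*, which cannot be told apart here. The call was lost without either X129OCast clone (adjusted p = 0.145 and 0.0565) or without XCastO129 clone 2 (adjusted p = 0.0968).

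For the other 5 genes no per-copy difference was called in either XO line. *Ube2a* was at 67.5 and 67.2 TPM in XCastO129 and at 55.6 and 57.9 in X129OCast, with per-copy differences of -0.01 and -0.22. *Cul4b* was at 216 and 187 and at 180.0 and 179 TPM, with per-copy differences of 0.00 and -0.13. *Usp9x* and *Ubqln2* had per-copy differences from -0.23 to -0.10. *Usp11* had 0.64 in XCastO129, with an interval from 0.00 to 1.28 (adjusted p = 0.102), and -0.17 in X129OCast. On the Cast allele in XCastO129, *Usp9x* had a log2 difference of -0.33, with an interval from -0.60 to -0.05 (adjusted p = 0.0668). It was -0.47 without clone 2, and -0.55 and called lower against XX Wildtype (adjusted p = 0.00282). The Cast differences of *Ubqln2* (0.07) and *Usp11* (0.17) were not called. Without XX Rnf12+/- replicate 2, *Usp11* was called higher per copy in XCastO129 (log2 difference 1.39, adjusted p = 0.00177), and without XCastO129 clone 2 *Ubqln2* was called lower (-0.44, adjusted p = 0.00124).

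**Figure D4:**
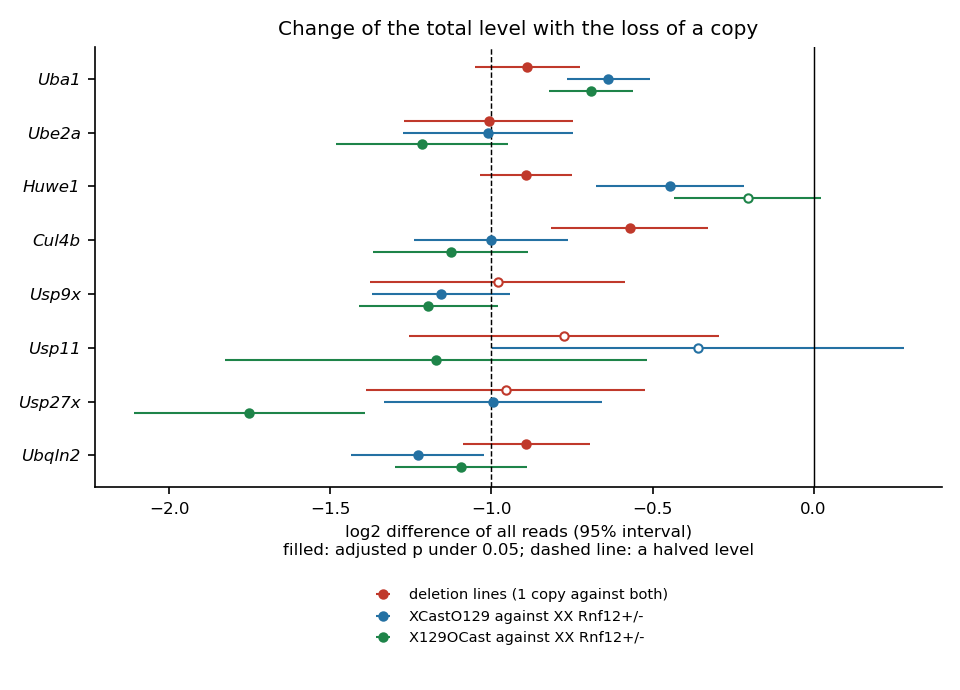
Log2 difference of the total level (all reads) with its 95% interval for the 8 expressed genes, for 1 copy against both in the deletion lines (red) and for each XO line against XX Rnf12+/- (blue, green). Filled points have an adjusted p under 0.05, the solid line marks no change and the dashed line (-1) a level that follows the copies. *Huwe1* lies nearer to 0 in both XO lines than in the deletion lines, and *Cul4b* nearer to 0 in the deletion lines.

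The loss of a copy by deletion and by loss of the X chromosome was set side by side in a test chosen after these values were seen. The log2 difference in total of *Huwe1* in the deletion lines was more negative than that in XCastO129 by 0.45 (log2 difference -0.45 ± 0.13, adjusted p = 0.00904) and than that in X129OCast by a log2 difference of -0.69 ± 0.13 (adjusted p = 2.05e-04). For *Cul4b* it was less negative, by 0.35 ± 0.14 (adjusted p = 0.0484) and 0.48 ± 0.14 (adjusted p = 0.00737). *Uba1* (-0.25, adjusted p = 0.0224) and *Ubqln2* (0.33, adjusted p = 0.0376) differed from XCastO129, and *Usp27x* (0.79, adjusted p = 0.00706) from X129OCast. *Uba1* missed the threshold against X129OCast (-0.19, adjusted p = 0.0527) and was called under DESeq2 (adjusted p = 0.00732), median-ratio size factors (adjusted p = 0.0359) and the replicate block (-0.20, adjusted p = 0.0448). *Ube2a*, *Usp9x* and *Usp11* were not called in either. *Usp11* turned on the XX Rnf12+/- libraries, with -0.47 against XCastO129 and 0.35 against X129OCast, but -1.22 (adjusted p = 0.0145) without replicate 2 and 0.84 (adjusted p = 0.0467) without replicate 1. Each of the 4 calls against XCastO129 was lost without at least 1 library, that of *Huwe1* without XCastO129 clone 2 (-0.29, adjusted p = 0.101) or XX Rnf12+/- replicate 2 (-0.36, adjusted p = 0.062), whereas against X129OCast *Huwe1* and *Cul4b* were called without each XX Rnf12+/- or X129OCast library in turn. Deletion libraries were not left out. Of all expressed genes, those called against XCastO129 made up 23.5% (AB), 29.8% (B and AB), 30.8% (A and AB), 38.1% (K and I-TEL) and 38.5% (I-TEL, and C and C-G). Against X129OCast they made up 34.6% (AB), 42.7% (B and AB), 43.2% (A and AB), 49.2% (I-TEL), 49.6% (C and C-G) and 49.7% (K and I-TEL). On the Cast allele the change of *Huwe1* differed from that in XCastO129 by -0.54 (adjusted p = 0.0208), where 21.9% of genes were called. The 2 arms use different references and batches, so that the kind of copy loss cannot be told apart from them.

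XX Rnf12+/- differed from XX Wildtype for *Cul4b* and *Ube2a*, although both lines have 2 copies of each. *Cul4b* was at 416 and 454 TPM in XX Rnf12+/- and at 649 and 717 in XX Wildtype (log2 difference -0.65 ± 0.11, adjusted p = 0.00257). *Ube2a* was at 144 and 148 against 193 and 217 (-0.48 ± 0.12, adjusted p = 0.0362). In this comparison 1.6% of all expressed genes were called lower. Both calls were lost without XX Wildtype replicate 2 (adjusted p = 0.0574 and 0.345), and that of *Ube2a* also without either XX Rnf12+/- replicate. Against XX Wildtype, the per-copy levels of *Cul4b*, *Ube2a* and *Usp9x* were called lower in both XO lines, as were 2598 (XCastO129) and 3336 (X129OCast) of all 11703 genes.

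Deletion E holds none of the 9 genes and shares the batch of XX Rnf12+/-. None of the 8 was called between them by edgeR or DESeq2, where 0.846% of all genes were called by edgeR, and 2 had an unadjusted p under 0.05 with either tool. With edgeR these were *Huwe1*, at 298 and 314 TPM in Deletion E (log2 difference 0.31, adjusted p = 0.240), and *Usp11*, at 53.7 and 47.4 TPM (log2 difference -0.74, adjusted p = 0.339). Without XX Rnf12+/- replicate 1, *Usp11* was called (log2 difference -1.23, adjusted p = 0.0198).

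The closest relatives of the members were examined in the comparison of their own member. Of 11 autosomal paralogs, 1 was called. *Ube2b*, which encodes the near-identical relative of the *Ube2a* product, was at 112 to 192 TPM in the 3 libraries with 1 copy of *Ube2a*, against 75.7, 106 and 131 (lowest, median, highest) in the 17 others. The ranges overlapped, and the log2 difference was 0.59 ± 0.13 (adjusted p = 0.0107), in the comparison where 4.27% of all genes were called higher. *Ubqln1* had a log2 difference of -0.28 in I-TEL (unadjusted p = 0.0457, adjusted p = 0.356). *Cul4a* differed by 0.12, *Uba6* by 0.00, *Usp4* by -0.09, *Usp15* by 0.16, *Usp22* by 0.08, *Usp24* by -0.08, *Ubqln4* by -0.08 and *Trip12* by 0.03, none of them called.

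Of 93 further autosomal ubiquitin genes listed, paralogs included, 91 were tested. In the deletion comparisons no gene of this list was called except in that of C and C-G, where *Ube2b* was higher and *Ube2m*, a conjugating enzyme for NEDD8, was lower (log2 difference -0.47, adjusted p = 0.00734). The median differences over the list were between -0.05 and 0.02, and those over all genes between -0.02 and -0.01. In the XO lines 18 and 23 genes of the list were called higher and 24 and 25 lower, for XCastO129 and X129OCast, beside 42.7% and 54.6% of all genes called. Increases in both included those of *Ube2s* (1.15 and 1.42), which extends ubiquitin chains on mitotic substrates, and *Ube2n* (1.08 and 1.11). *Nae1*, a subunit of the NEDD8 activating enzyme, fell in both (log2 differences -1.01 and -1.21).

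Of 21 other X-linked ubiquitin genes listed, without *Rlim*, 17 were tested. Genes of this list with 1 copy were few in each comparison. *Otud5*, a deubiquitinase, was called lower in A and AB (log2 difference -1.01, adjusted p = 8.09e-08), and *Rnf113a1* (-1.82, adjusted p = 5.46e-08) and *Xiap* (-1.16, adjusted p = 8.62e-04) of 4 genes in C and C-G. None of those with both copies was called in total. *Dcaf12l1* was called higher per copy in C and C-G (log2 difference 1.45, adjusted p = 0.003) and *Rnf113a1* lower per copy (-0.82, adjusted p = 0.00282). *Rnf128*, which keeps both copies in C and C-G but has 1 copy in some of the libraries they were compared with, was called higher per copy (0.99, adjusted p = 0.0134). In XO lines 15 of 17 (XCastO129) and 17 of 17 (X129OCast) were called lower in total, where 23.2% and 29.7% of all genes were. Per copy 1 was called higher in each line, *Otud5* (0.18 and 0.24), where 20.1% and 25.6% of all genes were. Called lower per copy were 7 and 10, where 21% and 28% of all genes were.

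Across the 17 conditions, the expressed gene whose log2 TPM per copy followed a member most closely was an autosomal gene for 7 members and the X-linked *Ndufb11* for *Usp11* (Pearson's r = 0.91). For *Usp9x* it was *Ranbp2* (r = 0.972), for *Cul4b* *Pkn2* (0.928), for *Usp27x* *Zfp60* (0.913), for *Huwe1* *Kat14* (0.887), for *Uba1* *Gpam* (0.872), for *Ubqln2* *Foxd3* (0.866) and for *Ube2a* *Glrx2* (0.829). These values describe 17 condition means that share library batches and reads of each library.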

How the data were processed

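RNA of 30 mESC libraries was sequenced as stranded mRNA. The authors trimmed the reads (TrimGalore) and used HISAT2 2.2.1 and an mm10 genome with masked SNPs for alignment, assigned reads to alleles by SNPsplit, and counted them per gene, per the paper with featureCounts and per the submitters' processing notes with HTSeq 0.12.4. The deposited table holds raw counts, not normalized, of all, 129 and Cast reads of 55421 genes. Of these, 55240 matched GENCODE M21 by identifier. The 181 others held at most 0.00401% of a library's counts and were left out.

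Groups were taken from the sample titles. Replicates were independent clones per the paper, and p-values measure the spread between these libraries. In the deletion comparisons and the exact permutation, clones of the same line counted as separate libraries. That they share a line was not modelled. TPM used union exon lengths. Genes with a mean TPM over 5 in XX Rnf12+/- were tested (11703 genes), and on the Cast allele those of them whose Cast count was 20 or more in each XX Rnf12+/- library (7087). Deletion comparisons used the 20 libraries of 1 batch with 2 levels (1 copy, both copies), others all libraries with 1 term per condition (without X129OCast for Cast counts), in edgeR 4.0.16 (R 4.3.3) with autosomal TMM library sizes and, per copy, the copy number in the offset. DESeq2 1.42.0 was the other tool. Pairs of genes were compared by exact permutation. Python 3.11.15, numpy 2.4.6, scipy 1.17.1, pandas 2.3.3 and matplotlib 3.10.9 were used. The fits were tested on simulated data. Depth of 8816184 to 21181405 counts per library gave the members above 5 TPM 40 or more counts per library.

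Members and lists were chosen with earlier results of these data known. Genes named were the members, their paralogs in the member's comparison, the 3 largest called changes per direction of each list or fewer, *Rlim*, and the gene most alike in pattern to each member. Some genes that this rule names are not reported here. Alternatives changed the tool, size factors, filters, reference, libraries in the fit, the scaling of Cast reads, the replicate number as a block, the copy of *Mid1*, and left out, one at a time, each 1-copy library (deletion comparisons), each library of the XX, XO or Deletion E groups compared, or each XX Rnf12+/- and XO library (deletion against XO lines). The comparison of deletion with XO lines was added after seeing the data.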

Additional observations from a re-analysis of the deposited data

Results flagged for a closer look

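Of the values above, 9 were picked out because the effect of a copy differed between lines, each by a test of the difference in edgeR's quasi-likelihood fit. Relative to XCastO129, the total change with the loss of a copy in the deletion lines differed by a log2 of -0.45 for *Huwe1*, -0.25 for *Uba1*, 0.35 for *Cul4b* and 0.33 for *Ubqln2*. The change of *Huwe1* on the Cast allele differed by -0.54 ± 0.17 (adjusted p = 0.0208), where 21.9% of 7087 genes were called. Relative to X129OCast, the total change differed by -0.69 for *Huwe1*, 0.48 for *Cul4b* and 0.79 for *Usp27x*. Between the XO lines themselves, *Usp27x* was higher in XCastO129 by 0.76. In the total comparisons with XO lines, 23.5 to 49.7% of all genes were called, and no test set the members against that share. Of the differences from XCastO129, that of *Cul4b* was lost under 2 other settings at the same log2 difference of 0.35 (median-ratio size factors, adjusted p = 0.0512, and the replicate block, adjusted p = 0.0513), and each of the 4 was lost without at least 1 library. The Cast call of *Huwe1* was lost without XX Rnf12+/- replicate 2 (-0.41, adjusted p = 0.147) and without XCastO129 clone 2 (-0.36, adjusted p = 0.152). Its call in total was lost without XCastO129 clone 2 (log2 difference -0.29, adjusted p = 0.101) and without XX Rnf12+/- replicate 2 (-0.36, adjusted p = 0.062). Against X129OCast, *Huwe1* and *Cul4b* were called without each XX Rnf12+/- or X129OCast library in turn (deletion libraries were not left out), and *Usp27x* was lost without X129OCast clone 1 (adjusted p = 0.0512).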

How the results depend on the processing

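Over all members, comparisons and settings, 922 of 993 values kept their side of the threshold, 37 lost a call and 34 gained one. No called value changed its sign. Values that were not called could change sign, as that of *Ubqln2* on the Cast allele in XCastO129 did (0.07, and -0.28 without clone 2). In the deletion lines, 5 of 8 genes were called lower in total, with 7 under DESeq2, under 1 term per condition over all libraries and with XX Rnf12+/- as the reference, and 4 to 5 with each 1-copy library left out (4 without Deletion C clone 2, where *Cul4b* was lost). Genes called higher per copy numbered 1 (*Cul4b*) in the deletion lines and 3 with XX Rnf12+/- as the reference (*Huwe1*, *Uba1* and *Usp11*, not *Cul4b*), and 0 to 1 with a 1-copy library left out. That reference is in another library batch, and 1747 (B and AB) and 1213 (K and I-TEL) of 11703 genes were then called higher per copy. On the Cast allele the count was 0 under all settings. With only the groups compared in the fit, calls per copy in XCastO129 dropped from 2 to 0, between the XO lines from 1 to 0, and between XX Rnf12+/- and XX Wildtype from 2 to 0. With XX Wildtype as the reference they numbered 5 per copy in XCastO129, 6 per copy in X129OCast (main value 3) and 2 on the Cast allele (main value 1). Without a filter, the gene called between the XO lines was *Usp11* in place of *Usp27x*, Cast calls in XCastO129 were 2 and calls in Deletion E were 2, where the main value is 0. With each library of the XX, XO or Deletion E groups compared left out, counts ranged from 2 to 3 (per copy, XCastO129), 3 to 3 (per copy, X129OCast), 1 to 2 (Cast allele), 0 to 1 (between XO lines), 0 to 2 (XX Rnf12+/- against XX Wildtype), 0 to 1 (Deletion E), 1 to 2 (deletion against XCastO129, main value 4) and 2 to 4 (deletion against X129OCast, main value 3). The *Cul4b* to *Ube2a* difference ranged from 0.30 to 0.63 and lost its call without either clone of Deletion C (exact permutation p = 0.129 and 0.0760). The *Uba1* to *Usp11* difference, not called, ranged from -0.53 to 0.41 and was 0.21 on Cast counts. The causes were not tested. The labels give groups the same replicate numbers, but these were not taken to pair the libraries, since not every pair of groups correlated above 0.1. Deviations of same-numbered libraries correlated between -0.215 and 0.285 within the batch of 20, where 10 of 16 libraries were closest to one of their own number, at -0.361 and -0.253 for Deletion E with the XX lines, at 0.786 for XX Wildtype with XX Rnf12+/- and at 0.159 for the XO lines. With the replicate number as a block, 5 genes were called lower in total and 1 higher per copy in the deletion lines, and 3 (XCastO129, without *Cul4b*) and 4 (X129OCast, with *Uba1* added) differed between deletion and XO lines. Depth limited *Usp27x* (41 to 134 counts in the batch of 20) and *Mid1*, and allelic reads limited *Ubqln2*.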

Other observations

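*Klhl13*, an X-linked adaptor of a cullin ligase and a gene of the fixed X-linked list, was at 858 TPM in XX Rnf12+/- and differed between the XO lines by a log2 of 3.36 ± 0.31 (adjusted p = 4.59e-06), higher in XCastO129. In X129OCast it was lower per copy than in XX Rnf12+/- by a log2 difference of -2.69 ± 0.30 (adjusted p = 1.03e-06). *Rnf128*, a ligase, was also higher in XCastO129 than in X129OCast (1.55 ± 0.26, adjusted p = 0.00177), as was *Otud6a*, a deubiquitinase (1.81 ± 0.47, adjusted p = 0.0231), and *Usp51*, a deubiquitinase, was lower (-0.68 ± 0.20, adjusted p = 0.0456). In the same comparison 8.98% of all expressed genes were called, and 4 of 17 genes of the list. As the XO lines differ both in the X kept and in *Rlim*, these cannot be told apart.

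*Cul4b* had 4 and 0 129 reads and 82 and 52 Cast reads in the single-read XCastO129 libraries and 59 and 65 129 reads in X129OCast, although the paired-read libraries of both-copy lines had at most 5 of either allele. *Mid1* had a 129 share of 22.8% over the 20 deletion libraries of 1 batch (34 129 reads and 115 Cast reads, Wilson interval 16.8 to 30.2%), below that of the other members with both copies.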
